A study of Mus musculus with 150 samples.

Results

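The Hox genes encode homeodomain transcription factors that give cells their position along the head to tail axis, and all 39 of them in the mouse count table (of 54082 genes) were followed through 150 single sensory neurons. They were taken by symbol alone, as every gene named Hoxa, Hoxb, Hoxc or Hoxd followed only by digits, with no use of measured values. The genes lie in 4 chromosomal clusters, and genes at the same place in different clusters form a paralogue group, numbered from 1 (anterior) to 13 (posterior). Within a cluster the order of the genes mirrors the order of their expression domains along the body, so the most posterior Hox gene that a neuron keeps on is commonly read as a record of where it arose. Hox proteins bind DNA with partner homeodomain proteins of the Pbx, Meis and Pknox families, and Polycomb complexes hold silent Hox genes shut. In the peripheral nervous system Hox genes also take part in choosing neuron types, and Hoxd1 is known for its role in mouse nociceptors.

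The neurons were somatosensory cells of untreated CD1 mice, an outbred strain from Charles River, at postnatal day 4 (33 cells, litters K and P_Q) or day 5 (all others). RNA was copied by Smart-seq, which amplifies polyA transcripts of 1 cell, and every sample is a single cell that carries the skin type of its neuron: hairy in 45 cells, both types in 1, and glabrous (hairless) in all others. The labels do not say how skin type was assigned or which spinal ganglia were sampled, so a Hox level cannot be set beside a known segment. The litter was the replicate (10 litters, 7 of them with 2 or more cells of either skin type), and labels that join letters were taken as 1 litter each. No mutant, Cre line or treated group is named in the labels. Depth lay between 395811 and 1053854 counts per cell, the median glabrous cell having 761491.5 and the median hairy cell 703718. All 6 general sensory neuron markers checked had counts in nearly every cell, with median levels from 37.3 CPM (counts scaled to a cell total of 1e6) for Pou4f1 to 2870 CPM for Prph. Markers of other cells also had counts, and the summed level of myelinating Schwann cell markers ran from 1280 to 7240 CPM in glabrous and from 1550 to 12700 CPM in hairy litter sums, higher in hairy sums in 6 of 7 litters, with none of its 6 markers at 0 throughout.

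Which paralogue groups were on was read per neuron, a gene being called detected at a count above 0 and at least 5 CPM. Group 7 was detected in 98% of the 150 neurons (exact Clopper-Pearson 95% interval 94.3 to 99.6), group 5 in 92.7%, group 8 in 85.3% and group 6 in 68.7%. Group 2 was detected in 79 neurons, group 9 in 61, group 4 in 49 and group 3 in 33. None of the 12 genes of groups 10 to 13 was detected in any neuron. The anterior to posterior series was thus not filled evenly within a cell, and group 3 was detected in fewer neurons than group 2. All intervals and limits of this kind cover counting error only.

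Of the 39 genes, 30 had at least 1 count, 26 were detected in at least 1 neuron and 16 in at least 10% of neurons. A typical neuron had 8 Hox genes detected (range 0 to 13), and its summed Hox level had a median of 190 CPM. The summed level was 196 CPM in the median glabrous and 180 CPM in the median hairy neuron. The 14 genes below the 10% line but with counts included Hoxb4, Hoxb9, Hoxc4, Hoxc5, Hoxc9, Hoxd4 and Hoxd9, the highest share among all 14 being 8% for Hoxc4. Just inside the line lay Hoxb3 at 10%.

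**Figure D1:**
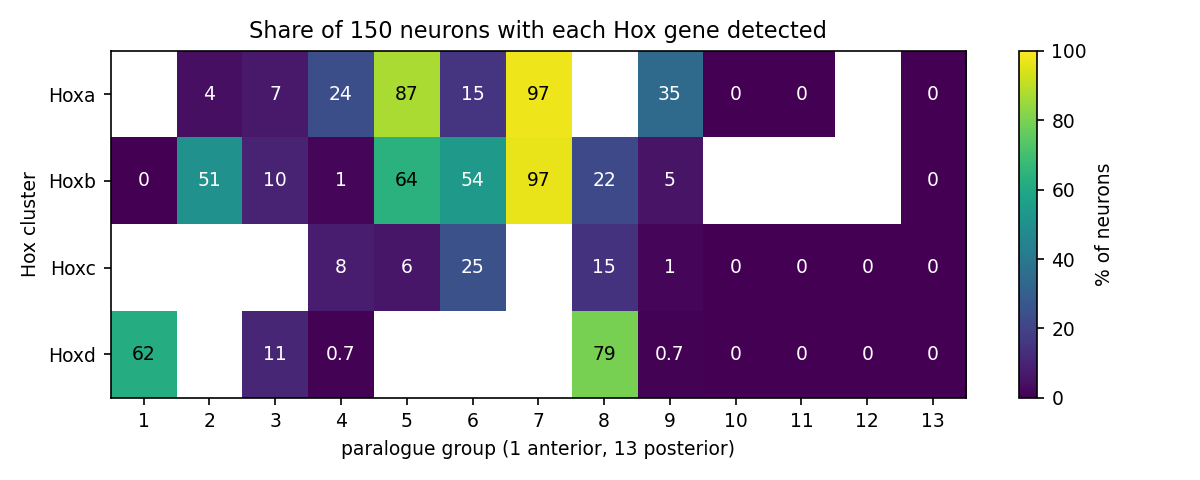
Share of the 150 neurons in which each Hox gene was detected (count above 0 and at least 5 CPM), by Hox cluster (rows) and paralogue group (columns); white squares hold no gene or one not reported here. Hoxa7 and Hoxb7 were detected in 97.3% and 96.7% of neurons, and nothing from group 10 on was detected.

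Group 7 was the common base of these neurons. Hoxa7 was detected in 97.3% of neurons, at a median of 50.5 CPM and a highest value of 179 CPM. Hoxb7 was detected in 96.7%, at a median of 25 CPM and a highest value of 88.6 CPM. Both had low and high cells in each skin type, and Hoxa7 was detected in 97.1% of glabrous and 97.8% of hairy neurons. Per kilobase of the median annotated transcript, Hoxa7 (62.6 CPM per kb) and Hoxb7 (30.1) led in level, ahead of Hoxa5 (8.63), Hoxd8 (5.57) and Hoxd1 (5.46). This order holds only if the deposited counts were not already scaled for transcript length, which the sources do not state.

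The middle groups differed from gene to gene more than from group to group. In group 5, Hoxa5 was detected in 87.3% of neurons at a median of 16.2 CPM, and Hoxb5 in 64% at 7.45 CPM. Hoxc5, the other member of that group, was detected in 9 neurons. In group 6, Hoxb6 was detected in 81 neurons, Hoxc6 in 37 and Hoxa6 in 23. In group 8, Hoxd8 was detected in 79.3% of neurons at a median of 9.79 CPM, Hoxb8 in 22% and Hoxc8 in 14.7%, the last 2 with a median of 0. Detection within a group thus differed several-fold between its members.

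Among the anterior groups Hoxd1 was detected in 93 neurons and Hoxb2 in 76, while Hoxa2 was detected in 6 and Hoxb1 in none. Hoxd1 reached 100 CPM in the highest neuron, against 4.84 CPM for Hoxb1. Hoxa4 was detected in 36 neurons, Hoxd3 in 16 and Hoxb3 in 15. Hoxd1 was thus detected in more neurons than its paralogue Hoxb1, and also than its neighbours Hoxd3 and Hoxd4, the latter detected in 1 neuron. Several loci overlap in the annotation: Hoxa3 runs over Hoxa4, Hoxa5 and Hoxa6, Hoxc5 over Hoxc6, Hoxc8, Hoxc9 and Hoxc10, and Hoxd3 over Hoxd4. Whether counting used strand is not stated, so reads of these genes and of their antisense partners (such as Hoxaas3 or Hoxd3os1) may not be told apart.

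The posterior boundary lay between groups 9 and 10. Hoxa9, at chr6:52223100-52231089 (mm10, minus strand), was detected in 52 of 150 neurons (34.7%, interval 27.1 to 42.9), at a median of 17.9 CPM where detected and up to 78.1 CPM. Hoxa10, the next gene along the cluster (chr6:52231197-52240854), lies directly beyond the Hoxa9 locus and had no count in any neuron. The same held for Hoxa11, Hoxa13, Hoxb13, Hoxc10, Hoxc11, Hoxd10, Hoxd12 and Hoxd13. With 111568019 counts over all cells, a total of 0 allows up to 0.0269 CPM, and 0 of 150 neurons allows a share of neurons with a count of up to 2% when 3 neurons are taken as the limit, or 2.43% by the exact interval. The other 3 genes of groups 10 to 13 (Hoxc12, Hoxc13 and Hoxd11) shared 13 counts in 8 neurons, at most 4.24 CPM. The rest of group 9 was sparse, with Hoxb9 in 8 neurons, Hoxc9 in 2 and Hoxd9 in 1.

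The 250 bases before a RefSeq start (GRCm38.p6) on each side of that boundary are shown because detection stops between them. The Hoxa9 window is chr6:52227371-52227620, minus strand, inside the Hoxa9 locus but outside every annotated exon. The Hoxa10 window shown is chr6:52240855-52241104, minus strand. Neither holds the letters TGATNNAT (a site bound by Hox with Pbx proteins) or TAATTA (a homeodomain core) on either strand, so neither has capitals.
Hoxa9: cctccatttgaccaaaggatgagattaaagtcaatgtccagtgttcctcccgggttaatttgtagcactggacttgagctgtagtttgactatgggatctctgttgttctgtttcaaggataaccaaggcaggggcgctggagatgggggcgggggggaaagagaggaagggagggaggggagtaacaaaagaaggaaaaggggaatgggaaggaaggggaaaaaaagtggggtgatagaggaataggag
Hoxa10: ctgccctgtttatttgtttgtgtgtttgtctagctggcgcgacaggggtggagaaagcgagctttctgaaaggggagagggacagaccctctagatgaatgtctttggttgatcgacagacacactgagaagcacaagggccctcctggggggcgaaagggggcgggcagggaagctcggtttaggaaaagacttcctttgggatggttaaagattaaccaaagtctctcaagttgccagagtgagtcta
The Hoxa9 window had 49.6% GC and 3 CpG, and the Hoxa10 window shown 51.6% GC and 7 CpG. Another RefSeq window of Hoxa10, chr6:52234940-52235189, lies inside the Hoxa10 locus, nearer to Hoxa9. It had 59.2% GC and 20 CpG and is not printed. RefSeq windows were found for 22 of the 39 Hox genes (24 windows), with a median GC of 58.6% and 12.5 CpG, against 52.4% and 6 over all 32851 windows. TGATNNAT was in 4 of the 24 and in 7.68% of all windows, and TAATTA in 2 of the 24 and in 4.84% of all. A match is a run of letters and no evidence of binding.

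The most posterior group detected placed nearly every neuron at one of 3 levels. It was group 9 in 61 neurons (40.7%, interval 32.7 to 49), group 8 in 71 (47.3%) and group 7 in 16 (10.7%). The 2 remaining neurons, glabrous cell 73 of litter I and hairy cell 37 of litter P_Q, had 4848 and 4360 detected genes, against a median of 14183.5 over all cells. In the 61 neurons at group 9 the level was set by Hoxa9 in 52, and in 50 of these by Hoxa9 alone. In the 71 at group 8 it was set by Hoxd8 in 67, by Hoxd8 alone in 49, and with or without it by Hoxb8 in 14 and Hoxc8 in 9. The placement thus rested on a single gene in most neurons.

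Levels were mixed within litters. Of 10 litters, 9 held neurons at group 8 together with neurons at group 9, and 6 held neurons at groups 7, 8 and 9. In litter E_F_G the 31 glabrous neurons comprised 2 at group 7, 16 at group 8 and 13 at group 9, and in litter I 4, 7 and 19 of 31. Litter M, the exception, had 1 glabrous and 7 hairy neurons and none at group 9. A litter holds several animals, and the labels do not tie cells to animals or ganglia, so mixing within 1 ganglion was not tested. The share at group 9 also differed between the expression clusters described below, from 8.33% in cluster 5 to 88.2% in cluster 7. Mixed levels were not separated from neuron type or from the 5 CPM minimum.

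Glabrous and hairy neurons were compared by the share at group 9, as a description. Pooled over cells, 52 glabrous neurons (50%, interval 40 to 60) and 9 of 45 hairy neurons (20%, interval 9.58 to 34.6) reached group 9. Over the 7 litters with both skin types, the share was 49.6% ± 17.4 (SD, n = 7) in glabrous and 32.6% ± 20.2 in hairy neurons. The paired difference was -17.0 percentage points ± 33.9, negative in 5 litters, 0 in 1 and positive in 1. Within plate 1 (3 litters) the difference was 11.3 points ± 21.2, and within plate 2 (4 litters) -40.5 ± 20.8. The plates differed in make-up, with 85 glabrous beside 10 hairy cells on plate 1 and 19 beside 35 on plate 2, so the pooled shares mix skin type with plate. Pairing within litters does not remove this in litter K, whose hairy cells were all on plate 2 and whose glabrous cells were on both plates. The difference over litters was smaller than its spread. It was negative in all 4 litters of plate 2, while the 3 of plate 1 split into 1 positive, 1 negative and 1 at 0. The positive one was litter H, with 14.3% of its glabrous neurons and 1 of its 2 hairy neurons at group 9.

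**Figure D2:**
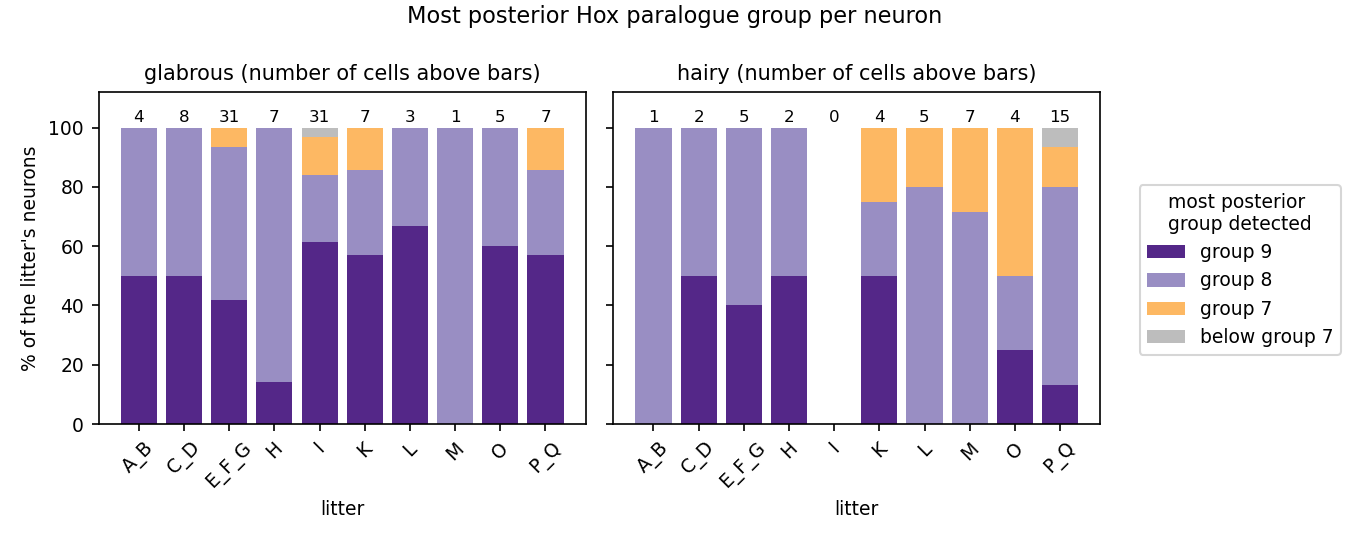
Share of each litter's neurons by the most posterior paralogue group detected, glabrous left and hairy right, with the number of cells above each bar. Group 9 was reached by 57.1% of the glabrous and 13.3% of the hairy neurons of litter P_Q, but by 14.3% and 50% of those of litter H, which has 2 hairy cells.

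The gene behind that pattern, Hoxa9, was detected in 45 glabrous (43.3%) and 7 hairy neurons (15.6%), and in 44.2% and 17.8% after each cell was thinned to 395811 counts. At that depth 5 CPM asks for fewer counts, and the neurons with Hoxa9 detected went from 52 to 54. In litter sums the Hoxa9 level ran from 6.15 to 42.4 CPM with a median of 8.78 in glabrous, and from 0 to 38.5 CPM with a median of 3.01 in hairy neurons. The hairy sum was lower in 6 of 7 litters, and the 2 ranges overlap because of litter H, whose hairy sum of 2 cells was the highest. The highest glabrous sum, in litter L, came from 3 cells, of which 1 had fewer than 10000 detected genes. Mean levels were 15.2 CPM ± 13.2 (SD, n = 7) and 7.56 CPM ± 13.7. In edgeR's quasi-likelihood test with the litter as a block, the log2 change from glabrous to hairy was -1.80 ± 0.98 (SE), with an adjusted p of 0.587 (p = 0.0965, lower in 6 of 7 litters). On plate 1 alone it was 0.01 and on plate 2 alone -3.36, neither passing (edgeR adjusted p = 0.999 and 0.380). Schwann cell markers, higher in hairy sums in 6 of 7 litters, had a Spearman correlation of -0.28 with Hoxa9 over the 150 cells, which came from 5 libraries of unequal depth. With the summed marker level of non-neuronal cells (Schwann cells included) in the model the change was -1.61 (edgeR adjusted p = 0.650).

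No Hox gene passed the comparison of skin types. The test covered 12 of the 39 genes, those with enough counts, and called 0 of them, at an unadjusted p under 0.05 also 0. Over all 12852 genes tested it called 12 (0.0934%), and 1277 (9.94%) were under an unadjusted 0.05. DESeq2 on unfiltered sums called 0 of 30 Hox genes (1.1% of all genes), with Hoxa9 under an unadjusted 0.05 (5.86% of all genes, DESeq2 adjusted p = 0.265), and limma's voomLmFit called 0 of 12 (0.226% of all). Of the 12 genes, 8 had a negative and 4 a positive change, with a median of -0.16 against -0.02 over all genes tested. A p that misses the threshold does not show equal levels, and the SE of the change ran from 0.16 (Hoxb7) to 1.21 (Hoxb8).

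The group 7 genes were measured most tightly. The Hoxa7 litter sums ran from 21.2 to 70 CPM (median 58.9) in glabrous and from 41.2 to 64.6 CPM (median 47.1) in hairy neurons. The ranges overlap, and the lowest glabrous value belongs to litter L with its 3 cells. The log2 change was -0.13 ± 0.18 for Hoxa7 and -0.06 ± 0.16 for Hoxb7 (SE, edgeR adjusted p = 0.858 and 0.932, n = 7 litters, lower in hairy in 4 and 5). Hoxa5 was lower in hairy sums in 6 of 7 litters, 14 CPM ± 4.24 against 17.7 ± 6.61, with a log2 change of -0.29 ± 0.29 (edgeR adjusted p = 0.787). Hoxb2 was higher in hairy sums in 6 of 7 litters, 6.97 CPM ± 1.58 against 5.73 ± 1.84, with a log2 change of 0.29 ± 0.27 (edgeR adjusted p = 0.773). Both mean differences were below the SD of the litter sums within a skin type, which is not the spread of the paired differences.

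The other tested genes moved less or varied more. Hoxa4 was lower in hairy sums in 6 of 7 litters, with a log2 change of -1.10 ± 0.67 (edgeR adjusted p = 0.629), and Hoxb8 in 5 of 7, at -1.03 ± 1.21 (0.827). The mean of the Hoxb8 sums was nonetheless slightly higher in hairy (4.24 CPM ± 6.84) than in glabrous neurons (3.98 ± 3.62), so its direction depends on the measure. Hoxb8 was led by single litters: 12 CPM in the 31 glabrous cells of litter E_F_G, and 18.6 CPM in the 2 hairy cells of litter C_D. Hoxd1 had litter sums of 8.71 to 38.1 CPM in glabrous and 0.687 to 37.8 CPM in hairy neurons, higher in hairy in 4 of 7. Its log2 change was -0.29 ± 0.50 (edgeR adjusted p = 0.892). For Hoxb5, Hoxb6, Hoxc6 and Hoxd8 the changes lay between -0.20 and 0.42. Hoxa6, Hoxb3, Hoxc8 and Hoxd3 fell below the filter on low counts, with mean litter sums of 1.95, 2.17, 0.703 and 2.20 CPM in hairy and 2.06, 1.32, 1.90 and 1.36 CPM in glabrous neurons.

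**Figure D3:**
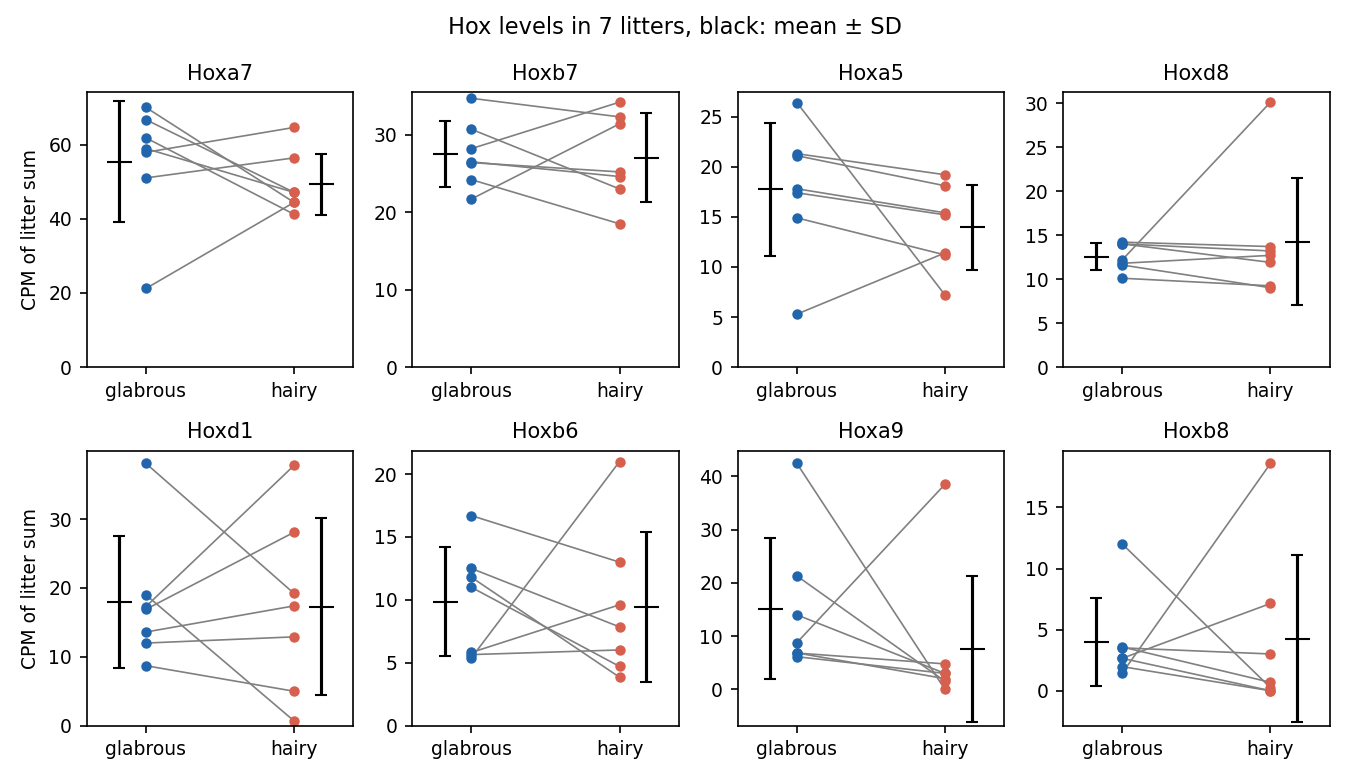
CPM of summed counts in the 7 litters with both skin types for 8 Hox genes; grey lines join the glabrous (blue) and hairy (red) sum of a litter, and black bars give mean ± SD. Hoxb7 stays between 18.5 and 34.7 CPM, while Hoxa9 and Hoxb8 each have 1 litter far above the others in each skin type, L (glabrous) and H (hairy) for Hoxa9, E_F_G (glabrous) and C_D (hairy) for Hoxb8.

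Age was compared in glabrous sums of 2 litters at day 4 and 7 at day 5, and no Hox gene passed. Of the 39 genes 19 were tested and 0 called, at an unadjusted 0.05 also 0, while over all 15185 genes edgeR called 0 (0%) and 422 (2.78%) were under an unadjusted 0.05. DESeq2 called 0 Hox genes too (0.0061% of all genes), with Hoxb9 under an unadjusted 0.05 (2.58% of all). Hoxd1 stood at 13.6 and 38.1 CPM in the day 4 litters and between 8.71 and 20.3 CPM (median 16.9) in the day 5 litters, a log2 change of -0.70 ± 0.40 (edgeR adjusted p = 1.00). It rested on the day 4 litters: the change was -1.28 without litter P_Q (unadjusted p = 0.0113, edgeR adjusted p = 0.997) and 0.29 without litter K (edgeR adjusted p = 1.00), each leaving 1 day 4 litter assumed to vary like the others. In hairy sums it was 0.11 (edgeR adjusted p = 1.00). Hoxa7 stood at 51 and 58.9 CPM at day 4 and between 21.2 and 77.9 CPM at day 5. With only 2 litters at day 4, age cannot be told apart from those litters. The skin difference itself did not pass a test of change between the days for any of 12 Hox genes (edgeR, 0 of 12852 genes called, 0%, and 0.677% under an unadjusted 0.05).

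Detection of several Hox genes varied widely between neuron types. The cells formed 8 expression clusters, made with all 85 genes of the Hox clusters left out. Clusters 1 and 5 were peptidergic nociceptor-like (Calca and Tac1), 3 and 6 A-fibre low-threshold mechanoreceptor-like (3 with Ret, 6 with Ntrk2), and 8 C-fibre low-threshold mechanoreceptor-like (Tafa4). Clusters 2, 4 and 7 stayed unnamed, and were led by Gfra3 and Mrgprd, by Gm765 and Ptgir, and by Cckar and Runx3. Cluster 5 also carried genes of fibroblasts and Schwann cells (Col1a1, Mbp) among its leading genes. The values below are descriptions over cells, with no test.

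Hoxa7 and Hoxb7 were detected in 93.8% or more of the neurons of every cluster. Hoxa9 ran from 5.88% in cluster 2 to 88.2% in cluster 7, a range of 82.3 points and the widest of the 16 genes. Hoxa9 was detected in 15 of the 17 neurons of cluster 7 at a median of 23.5 CPM, in 52.6% of cluster 3, 47.6% of cluster 4 and 37.5% of cluster 1. In clusters 5, 6 and 8 the share was 8.33%, 6.67% and 11.8%. The contrast of clusters 7 and 6 held within litters: Hoxa9 was detected in 4 of 5 against 1 of 7 glabrous neurons in litter E_F_G, in 6 of 6 against 0 of 4 in litter I, in 1 of 1 against 0 of 2 in H and in 1 of 1 against 0 of 1 in P_Q.

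Hoxd1 had another distribution. It was detected in 86.7% of cluster 6, 81% of cluster 4 and 78.1% of cluster 1, but in 15.8% of cluster 3 and 35.3% of cluster 7. Its median was 24.8 CPM in cluster 6 and 0 in cluster 3, both A-fibre-like. In litter E_F_G, 5 of 7 glabrous neurons of cluster 6 and 0 of 4 of cluster 3 had Hoxd1 detected. Hoxb6 was detected in all 15 neurons of cluster 6 and in 88.2% of cluster 7, against 25% of cluster 1 and 28.6% of cluster 4. Hoxb8 was highest in clusters 3 (52.6%) and 6 (46.7%), and Hoxc8 in cluster 7 (47.1%). Hoxa5 was detected in 82.4% or more of every cluster but cluster 5, where it was 33.3%. That low share came from the hairy cells: Hoxa5 was detected in 4 of 5 glabrous and 0 of 7 hairy neurons of cluster 5, and Hoxb6 likewise in 4 of 5 and 0 of 7. The glabrous cells there were all from plate 1 and the hairy ones all from plate 2, so skin type and plate cannot be told apart. The median Hoxa7 level was also lowest in cluster 5, at 23.4 CPM (54.9 in its glabrous and 18.8 in its hairy cells), beside a median summed Schwann cell marker level of 5350 CPM. Cluster 8 had a like Schwann cell marker level, 5470 CPM, and a Hoxa7 median of 51 CPM, but other marker lists differed. Fibroblast markers were at 1640 CPM in cluster 5 and 1120 in cluster 8, and satellite glia markers at 2620 and 1130. The general sensory neuron markers were at 4170 and 7010 CPM. The cause of the low Hoxa7 level was not tested.

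**Figure D4:**
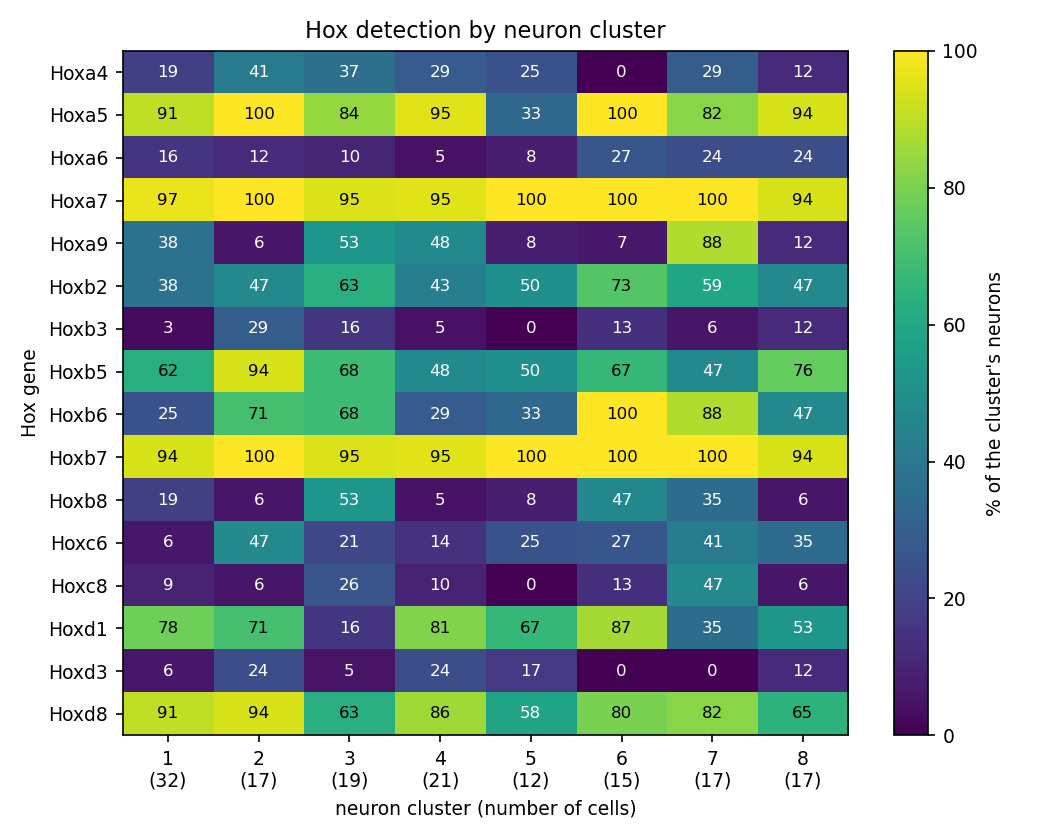
Share of neurons with each of 16 Hox genes detected, by expression cluster (columns, number of cells in brackets). Rows Hoxa7 and Hoxb7 are high throughout, whereas Hoxa9 runs from 5.88% (cluster 2) to 88.2% (cluster 7) and Hoxd1 from 15.8% (cluster 3) to 86.7% (cluster 6).

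These clusters were unevenly divided between skin types, so the Hoxa9 share by skin stands beside a difference in neuron mix. Cluster 7 was all glabrous (17 neurons), cluster 4 held 20 glabrous and 0 hairy, and cluster 8 held 3 glabrous and 14 hairy. Within cluster 1 Hoxa9 was detected in 10 of 22 glabrous and 2 of 10 hairy neurons, and within cluster 3 in 7 of 11 and 3 of 8. In cluster 8 it was detected in 1 of 3 and 1 of 14, and in cluster 2 in 0 of 12 and 1 of 5. Without the cells of cluster 8 the log2 change of Hoxa9 was -1.44 (edgeR adjusted p = 0.874). That setting kept clusters 4 and 7, which held no hairy cells, so it does not remove the difference in neuron mix. With cluster in the model, an analysis added after the data were seen, Hoxa9 had too few counts to be tested.

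The Hoxb8 window, chr11:96281655-96281904 (plus strand, GRCm38.p6, before the RefSeq start), is shown because it is the only one of the 4 printed here with a motif match. Its capitals mark TGATNNAT, read on the other strand, starting 11 bases before the start.
Hoxb8: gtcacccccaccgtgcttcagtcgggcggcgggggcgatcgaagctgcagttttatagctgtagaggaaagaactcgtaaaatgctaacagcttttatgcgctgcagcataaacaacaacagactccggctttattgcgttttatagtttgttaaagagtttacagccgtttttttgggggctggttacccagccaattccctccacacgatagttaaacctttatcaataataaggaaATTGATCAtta

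Hox genes of the same chromosomal cluster were only weakly tied to each other across neurons. Over the 16 genes, the median Spearman correlation was 0.17 for 29 pairs in the same Hox cluster (-0.02 to 0.43) and 0.05 for 91 pairs in different clusters (-0.25 to 0.35), each over 150 cells of 5 libraries and unequal depth. The highest were Hoxc6 with Hoxc8 (0.43), then Hoxa5 with Hoxa7 and Hoxd1 with Hoxd8 (both 0.41), and Hoxc6 and Hoxc8 lie under the annotated span of Hoxc5. Hoxb6 was detected in 26 of the 33 neurons with Hoxb8 (78.8%). Hoxa9 and Hoxb5 had the lowest value, -0.25, and were detected together in 27 neurons.

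Among the noncoding genes of the Hox clusters 2 stood out, Hoxd3os1 by its detection and Haglr, at a median of only 1.49 CPM, by its correlation with Hoxd1. Hoxd3os1, annotated antisense across Hoxd3 and Hoxd8, was detected in 95 glabrous and 37 hairy neurons at a median of 12.4 CPM, and was the one member of that list of 14 to reach the skin test (log2 change 0.00 ± 0.25, edgeR adjusted p = 0.999, higher in hairy in 4 of 7 litters). Hotair, Hottip, Hoxa11os, Evx1 and Evx2, which flank or lie among the posterior genes, had no count, as did 4 of the 5 microRNA loci listed. Smart-seq copies polyA transcripts, so the zeros of the microRNA loci do not show that these were silent. Haglr, a lncRNA that starts 84 bases upstream of Hoxd1 on the other strand, was not on the list and was chosen after its values were seen. It was detected in 39 neurons, 38 of which also had Hoxd1 (97.4%), while 40.9% of the 93 neurons with Hoxd1 had Haglr. Its Spearman correlation with Hoxd1 was 0.68 over all cells, 0.66 in glabrous and 0.69 in hairy neurons, against 0.40 with Hoxd8 and 0.13 with Hoxd3. Within expression clusters it ran from -0.07 (cluster 6, where 13 of 15 neurons had Hoxd1 and 2 had Haglr) and 0.30 (cluster 1, 32 neurons) to 0.87 (cluster 5, 12 neurons).

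The window before Hoxd1, chr2:74762730-74762979 (plus strand, GRCm38.p6), is shown because both genes start in it or next to it. Capitals mark exon 1 of Haglr (chr2:74762779-74762896), which is transcribed from the other strand. It had 71.6% GC and 24 CpG.
Hoxd1: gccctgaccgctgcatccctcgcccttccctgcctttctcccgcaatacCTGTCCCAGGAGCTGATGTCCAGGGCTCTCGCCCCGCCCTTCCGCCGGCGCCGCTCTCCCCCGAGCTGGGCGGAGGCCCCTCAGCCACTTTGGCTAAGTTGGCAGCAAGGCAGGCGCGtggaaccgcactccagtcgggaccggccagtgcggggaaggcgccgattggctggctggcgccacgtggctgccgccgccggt

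**Figure D5:**
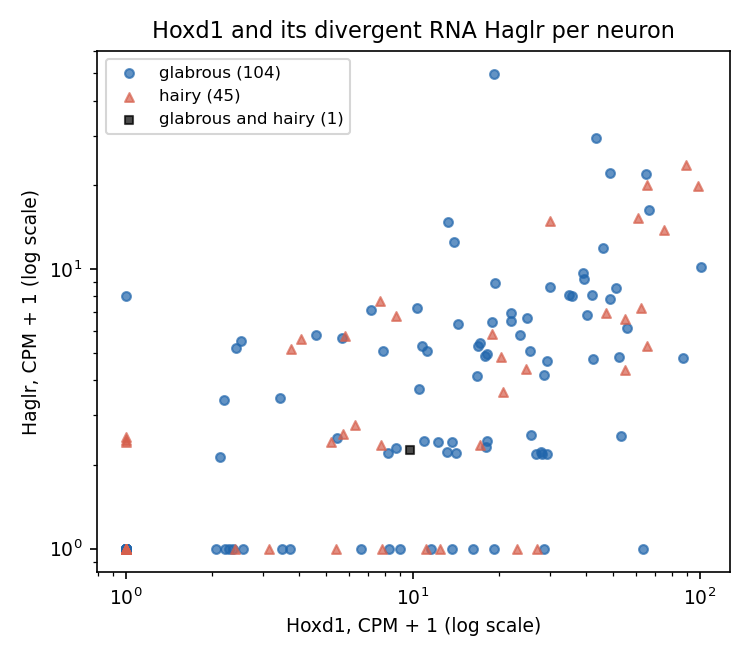
CPM + 1 of Haglr against CPM + 1 of Hoxd1 in each of 150 neurons, both on log scales, glabrous as circles, hairy as triangles and the cell with both labels as a square. Of the 39 neurons with Haglr detected, 38 also had Hoxd1.

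The partners and regulators of Hox genes were read from 3 further lists, and none of their tested members passed between skin types. Of 9 TALE cofactors (the Pbx, Meis and Pknox partners of Hox proteins) all were tested, 6 with a positive and 3 with a negative change, at a median of 0.17. Pbx4 had the smallest p, at 14.3 CPM ± 2.96 in glabrous and 9.94 ± 3.14 in hairy sums (log2 change -0.57 ± 0.24, edgeR adjusted p = 0.478, higher in hairy in 1 of 7 litters), and Pbx3 the next (1.01 ± 0.58, 0.609). The most abundant cofactors were Pknox2, at a median of 59 CPM per neuron, and Meis3, at 38.9 CPM.

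Of 19 Polycomb and trithorax regulators, which keep Hox genes silent or active, 13 had a positive and 6 a negative change, at a median of 0.38 against -0.02 over all genes tested, and none passed. At an unadjusted p under 0.05 there were 3 of 19 (Ezh1, Rnf2 and Kdm6a), beside 9.94% of all genes. Ezh1, a histone methyltransferase of Polycomb complex PRC2, was at 35.7 CPM ± 7.93 in glabrous and 54.7 ± 21.5 in hairy sums (log2 change 0.56 ± 0.17, edgeR adjusted p = 0.324, higher in hairy in 6 of 7 litters). Rnf2, a ubiquitin ligase of PRC1, was at 11.8 ± 6.84 and 22.1 ± 10.5 (0.90 ± 0.35, edgeR adjusted p = 0.439). Of 13 upstream regulators of the axial code 6 were tested, 4 positive and 2 negative, at a median of 0.27. Rarg, a retinoic acid receptor, was at 5.28 ± 3.61 and 12.5 ± 9.02 CPM (1.13 ± 0.49, edgeR adjusted p = 0.492), and the growth factor gene Gdf11 at 13 ± 2.89 and 8.35 ± 4.65 (-0.75 ± 0.40, edgeR adjusted p = 0.578). Cdx1, Cdx2 and Cdx4, caudal-type genes that act on Hox clusters in the embryo, had counts in 6, 1 and 0 neurons.

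Genes outside the Hox clusters whose levels went with Hoxa9, Hoxd1 or Hoxb8 were ranked by Spearman correlation over the 150 neurons among 16978 genes seen in at least 20% of cells. Hoxb8 went with Nefm (0.59), a neurofilament gene, Kcnq3 (0.57), a potassium channel gene, and Snap25 (0.56), and inversely with Atp1b3 (-0.51), Nptx2 (-0.50), Prdm12 (-0.47) and Scn11a (-0.45), the sodium channel Nav1.9 of nociceptors. Hoxd1 went with the glutamate receptor gene Gria1 (0.56), Vgf (0.54), Hpcal1 (0.53) and F2rl2 (0.52). Hoxa9 went with Ndufc2 (0.53), Ndufv2 (0.52), Bckdhb (0.51) and Mrps18a (0.51), of which Ndufc2, Ndufv2 and Mrps18a encode proteins of the mitochondrial respiratory chain or ribosome, and inversely with Cav1 (-0.46) and Klf5 (-0.45). For Hoxb8 the values with Nefm were 0.54 in glabrous and 0.73 in hairy neurons, and for Hoxd1 with Gria1 0.53 and 0.63. For Hoxa9 they were 0.51 and 0.43 with Ndufc2, but -0.48 and -0.13 with Cav1.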

How the data were processed

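The deposited table holds whole-number expected counts per gene and cell, which the authors made with FastQC, cutadapt, Salmon and mm10, per the submitters' processing notes. Versions, annotation and any length scaling were not given in the sources used here. Counts were scaled to CPM of the cell total, and a Hox gene counted as detected at a count above 0 and at least 5 CPM. For tests, the counts of a litter's cells of 1 skin type were added up (2 or more cells each) and fitted in edgeR 4.0.16 (TMM, filterByExpr, quasi-likelihood F-test, litter as a block, R 4.3.3), with Benjamini-Hochberg adjustment over all genes at 0.05. The SE is the log2 change over the square root of F. Litters pair the sums by label: the correlation of a litter's glabrous and hairy deviations ran from -0.0804 to 0.265. Alternatives used DESeq2 1.42.0 and limma 3.58.1. Cells were clustered with scanpy 1.11.5 (2000 variable genes, 20 components, 10 neighbours, resolution 1); no doublet caller was run on these 150 cells. No pair of cells was identical. The procedure was tested on simulated data. Positions come from GENCODE for mm10 and sequences from RefSeq. The skin p-values measure how the difference between skin types varied from litter to litter, and the age p-values the spread between litters. Nothing ties cells of a litter to animals, so neither covers the spread between animals.

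The Hox genes and all lists were chosen with earlier results of these data known. Hox genes detected in at least 10% of cells were described by name (values of 1 Hox gene below that share are not reported here), with the list members that passed or, failing that, the 2 with the smallest p (for the lists given above, besides the single tested noncoding gene). Genes following groups 10 to 13 were to be ranked, but 8 cells had any such count, so Hoxa9, Hoxd1 and Hoxb8 served instead, chosen after seeing the data.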

Additional observations from a re-analysis of the deposited data

Results flagged for a closer look

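In 32 sets of 7 litter sums (16 Hox genes in each skin type), 7 had a litter far from the other 6 by Dixon's 95% criterion, which flags about 1 set in 20 by chance, here 1.6. Litter L, with 3 glabrous cells, was low for Hoxa7 (21.2 CPM, median of the others 60.3) and high for Hoxa9 (42.4 CPM against 7.82). Litter H, with 2 hairy cells, was high for Hoxa9 (38.5 CPM against 2.52). Hoxb8 was high in the 31 glabrous cells of E_F_G (12 CPM against 2.66) and in the 2 hairy cells of C_D (18.6 CPM against 0.470). Hoxd1 was high in the 7 glabrous cells of litter K (38.1 CPM against 15.2), and Hoxd8 in the 5 hairy cells of litter L (30.1 CPM against 12.3). Of these 7 sums, 6 hold 7 cells or fewer.

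The neuron labelled with both skin types, which entered no comparison, also had Hox genes on. Hoxa7 stood at 56.4 CPM (45 counts) and Hoxb7 at 32.6 CPM (26 counts), and the most posterior group detected was 8. It had a single count of Hoxa9.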

How the results depend on the processing

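No Hox gene passed between skin types or ages in any of the alternatives run. Between skin types, the unadjusted edgeR p of Hoxa9 was 0.00207 with no filter on low counts (adjusted 0.125). It was 0.022 on plate 2 alone (adjusted 0.38) and 0.0234 without litter H (adjusted 0.429). For Hoxa5 it was 0.0476 without C-fibre-like cells (adjusted 0.854) and 0.0233 with cluster in the model (adjusted 0.985). In these settings 4.7% to 11.5% of all genes were under 0.05. What follows concerns direction and counts over all genes. Over all genes, the 12 calls between skin types became 364 with DESeq2, 342 with no filter on low counts, 29 with voomLmFit, 21 with mean log2(CPM + 1) per cell, 4 with cluster in the model, 1 when litters with a single cell of a skin type entered, and 0 on plate 1 alone, on plate 2 alone, without C-fibre-like cells or with non-neuronal marker level in the model. Without 1 litter they ran from 0 (without K, O or P_Q) to 15, with 1 without L, 2 without E_F_G and 7 without H, and without the replicate block they were 11. For age, DESeq2 called 2 genes, and leaving out 1 litter gave 0 to 1.

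The log2 change of Hoxa9 was negative in 19 of 20 settings, from -3.36 to 0.01 (plate 1 alone), and from -2.44 to -1.18 without 1 litter. Small changes turned direction: Hoxa5 (0.05) and Hoxa7 (0.02) on plate 2 alone, Hoxb6 on plate 1 alone (0.28), without litter O (0.01) and with non-neuronal markers in the model (0.09), and Hoxb7 on plate 1 alone (0.03), with those markers (0.01), with mean log2(CPM + 1) per cell (0.13) and with cluster in the model (0.08). Hoxd1 did so without litter H (0.08) and on plate 2 alone (0.09), and Hoxd8 without litter L (-0.10) and without C-fibre-like cells (-0.07). The cause was not tested. Without 1 litter Hoxb6 ran from -0.55 and Hoxd1 from -0.56 to those positive values. Hoxb8 was negative in all 17 settings that tested it, from -1.94 (without litter C_D) to -0.03 (no replicate block) and -0.02 (mean log2(CPM + 1) per cell), and -0.50 without litter L. It fell below the filter on low counts without litter E_F_G, its highest glabrous litter, without P_Q, on plate 2 alone and with cluster in the model.

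The share of neurons at group 10 or higher was 0 in both skin types. With any count, or at least 1 CPM, its difference was -6.06 points, and at group 9 or higher -17.0 points. With any count taken, the mean group 9 shares were 77.6% in glabrous and 63.8% in hairy neurons, a difference of -13.8 points. The group 9 difference ran from -25.8 (without H) to -8.70 (without L) when 1 litter was left out. It turned to 11.3 on plate 1 alone, where only litter H was positive. It was also positive, at 7.14, when at least 2 group 9 genes were asked for, which 1 litter met. Litters with 2 to 5 cells of a skin type limit all of these shares.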
